A study of Mus musculus with 24 samples.

Results

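Integrins and cadherins are the receptors with which a cell holds the extracellular matrix and its neighbours, and the genes described here are all Itga, Itgb and Cdh rows of a mouse RNA-seq table, chosen by gene symbol alone. The rule found 49 genes, 27 integrin subunits and 22 cadherins, among 28109 genes in the table. Expression was measured in 24 libraries: C2C12 cells, a myoblast line of the C3H strain, and primary myoblasts (PMs) isolated from C57/B6 mice 3 to 4 weeks old. Each received either an siRNA to luciferase as control (siControl) or a pool that targets the Tead1 and Tead4 mRNAs (siTead1/4). Cells were collected at day 0, before the change to differentiation medium, and at days 3 and 6 of differentiation, with 2 libraries in each of the 12 groups. PMs at day 0 already expressed Myog, as given with the markers below. All cells, the siControl ones included, went through siRNA transfection before differentiation. The labels call the libraries of a group biological duplicates without saying whether they came from separate cultures or animals. The p-values therefore measure the spread between these libraries, which may be technical. In PMs Cdh19 and Sox10 separated replicate 1 from replicate 2 in every group, as given with the cadherins. C2C12 cells form 1 immortal line, while PMs are a culture from muscle tissue grown on matrigel-coated dishes and in another medium, so that strain, substrate, medium and the line itself cannot be told apart in any difference between the cell types.

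An integrin is a pair of an alpha and a beta chain. The alpha chain largely sets the ligand: alpha3, alpha6 and alpha7 bind laminins, alpha1, alpha2, alpha10 and alpha11 bind collagens, alpha5, alpha8, alphav and alphaIIb recognise RGD motifs such as that of fibronectin, and alpha4 and alpha9 bind fibronectin, VCAM-1 or other ligands. Cadherins are calcium-dependent adhesion molecules whose classical members bind the same cadherin on the next cell and link to actin through catenins. In skeletal muscle, integrin alpha7beta1 is the laminin receptor of the myofibre, and M-cadherin (Cdh15) and N-cadherin (Cdh2) join myoblasts as they align and fuse. Tead1 and Tead4 are transcription factors that bind the MCAT element, whose core letters are CATTCC.

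Read totals over genes ranged from 25453830 to 52784510 in the C2C12 libraries and from 32571583 to 51110723 in the PM libraries. Levels are given as CPM, read counts scaled to a common library size with TMM factors, with the value of replicate 1 first, and comparisons between genes use CPM per kilobase of gene length. In single siTead1/4 libraries Tead1 and Tead4 stood at 4.90% to 72.5% of their siControl mean in C2C12 cells and at 15.7% to 62.1% in PMs. Their decrease passed the test in 2 of 6 gene and day combinations in C2C12 cells and in 5 of 6 in PMs. Both C2C12 calls were of Tead4, at days 0 and 3, and Tead1 was not called there at any day. At day 6 in C2C12 cells neither was called, with Tead1 at 66.5% and 72.5% and Tead4 at 33.6% and 48.4% of the siControl mean. In PMs the decrease of Tead1 at day 6 was not called. The myogenic marker list (Myod1, Myf5, Pax7, Des, Myog, Chrna1, Ckm) summed to 709 to 8266 CPM in C2C12 and to 5325 to 12960 CPM in PM libraries. At day 0 of siControl each of these markers was higher in PMs than in C2C12 cells. Myog stood at 960 and 1039 CPM in PMs then, near its 986 and 1168 CPM at day 3, and at 9.68 and 2.91 CPM in C2C12 cells. Ckm stood at 83.9 and 53.65 CPM against 2.0 and 0.284 CPM, and at 2231 and 1624 CPM in PMs at day 3. White blood cell markers summed to at most 9.33 CPM in any library, of which Cd14 gave up to 7.72 CPM and Emr1 at most 0.0289 CPM. The log2 difference between the 2 libraries of a group had an SD of 0.736, 0.731 and 0.621 across genes in the siTead1/4 C2C12 groups at days 0, 3 and 6, and of 0.401 to 0.555 in the other groups. Since this is bulk RNA, fewer cells of a type and less RNA per cell cannot be told apart.

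Of the 49 members, 36 reached a mean of 1 CPM in the siControl libraries of at least 1 cell type, 27 of them in C2C12 cells and 33 in PMs. Per kilobase, Itgb1, Itga7 and Cdh15 led in both cell types. Itgb1, the shared beta1 chain, stood at 434 CPM per kilobase in C2C12 cells and 299 in PMs, and Itga7 at 341 and 310.2. Cdh15 came next, with 109 CPM per kilobase in C2C12 cells and 109 in PMs. Next were Itgb5 (86.6) and Itga5 (59.1) in C2C12 cells, and Cdh2 (58) and Itga5 (40.9) in PMs. The ranges of Itgb1 and Itga7 over the day means overlapped in both cell types. At the other end, 7 members (Cdh7, Cdh9, Cdh12, Cdh22, Cdh26, Itgax and Itgb2l) had at most 10 reads in any library and were tested in neither cell type. Another 6 (Cdh4, Cdh19, Cdh20, Itga2, Itgad and Itgal) passed the filter on low counts in PMs but not in C2C12 cells, which left 36 members tested in C2C12 cells and 42 in PMs.

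**Figure D1:**
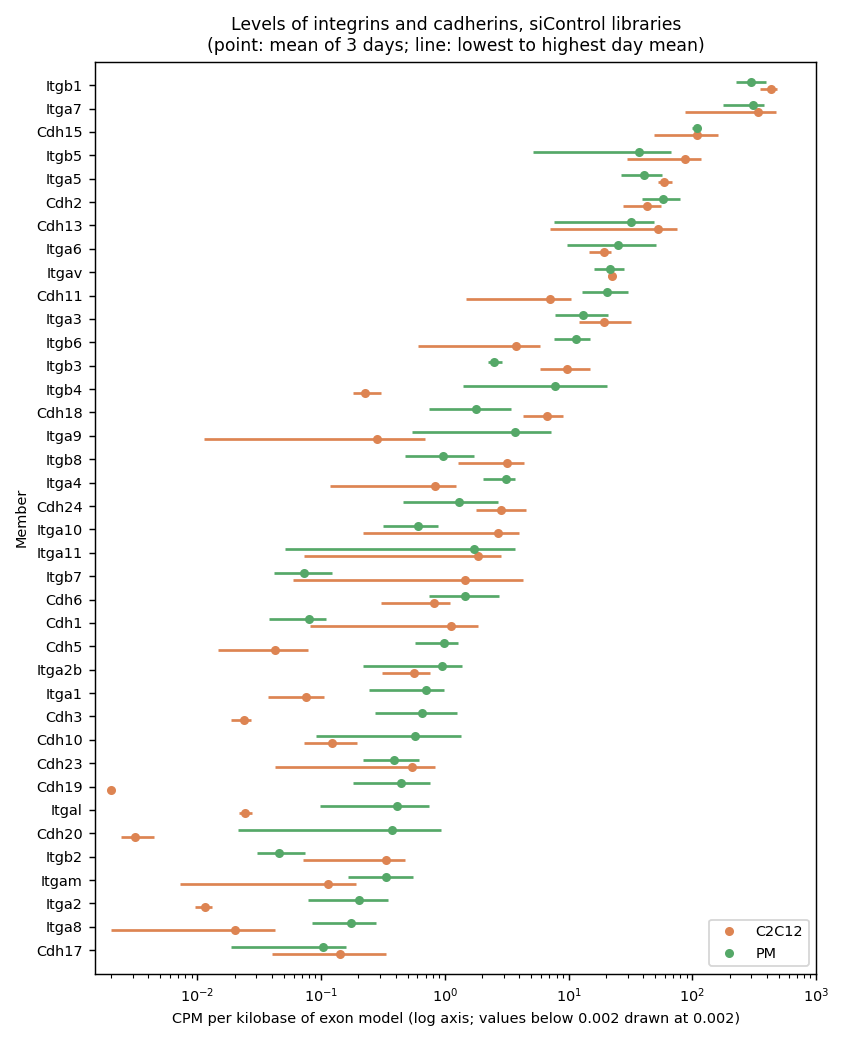
Levels of 38 members in siControl libraries, in CPM per kilobase on a log axis, for C2C12 cells and PMs; the point is the mean of 3 days, the line runs from the lowest to the highest day mean, and values under 0.002 are drawn at 0.002. The 11 members under 0.1 CPM per kilobase in both cell types are not drawn; Itgb1, Itga7 and Cdh15 stand above 100 in both, and the lines of Itgb5, Itgb4, Itga11 and Itga9 are among the longer ones.

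During differentiation of siControl cells the adhesion genes changed in large number. A gene was called when its adjusted p was under 0.05 and its log2 fold change (log2FC, with its standard error, SE) over 1 or under -1. Between day 0 and day 3, 22 of the 36 tested members were called in C2C12 cells, 17 higher and 5 lower, where 28.7% of all tested genes were called. In PMs 20 of 42 were called, 12 higher and 8 lower, beside 32.3% of all genes. The median log2 fold change of the tested members was 1.51 in C2C12 cells, against -0.01 over all genes, and 0.50 in PMs, against 0.01. At day 6 against day 0, 21 of 36 members were called in C2C12 cells (16 higher, 5 lower; 31.1% of all genes) and 27 of 42 in PMs (18 higher, 9 lower; 35.5% of all genes, 20.2% higher and 15.3% lower). Without the PM libraries of replicate 1, whose markers are given with the cadherins, 1 library is left in each PM group. Each is then assumed to vary like the C2C12 libraries, so calls from that fit are not compared here.

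Among the laminin receptors, Itga7 rose in both cell types while Itga6 and Itgb4 fell in PMs. Itga7 in siControl C2C12 cells measured 392 and 356 CPM on day 0, 2108 and 1926 on day 3 and 2045 and 1894 on day 6, a rise at day 3 (log2FC 2.39, SE 0.36, adjusted p = 5.90e-04), and the groups at days 0 and 3 did not overlap. In PMs Itga7 began higher, with 785 and 733 CPM on day 0, 1609 and 1596 on day 3 and 1503 and 1699 on day 6, and rose less (log2FC 1.02, SE 0.11, adjusted p = 1.67e-05). This PM call was lost without siControl day 0 replicate 2 (log2 0.97, adjusted p = 5.17e-04). Itga6, the alpha chain of laminin receptors on satellite cells and epithelia, measured 438 and 481 CPM on day 0, 104 and 149 on day 3 and 86.5 and 88.2 on day 6 in PMs and fell (log2FC -1.92, SE 0.15, adjusted p = 2.07e-06). In C2C12 cells it measured 139.6 and 246 CPM on day 0, 185 and 214 on day 3 and 128 and 135 on day 6, and days 0 and 3 overlapped (log2FC 0.01, SE 0.28, adjusted p = 0.980). Itga3 was lower at day 3 in both cell types. It measured 172 and 165 CPM on day 0, 77.9 and 71.7 on day 3 and 72.5 and 55.2 on day 6 in C2C12 cells (log2FC -1.21, SE 0.40, adjusted p = 0.0343), and that call was lost without any 1 of the 4 libraries (adjusted p = 0.0920 to 0.149). Its PM values were 119 and 98.4 CPM on day 0, 54.6 and 58.4 on day 3 and 35.5 and 46 on day 6. The PM change at day 3 lay at the threshold (log2FC -1.0, SE 0.16, adjusted p = 3.26e-04). It was lost without siControl day 0 replicate 1 (log2 -0.85, adjusted p = 0.00455) or siControl day 3 replicate 1 (log2 -0.95, adjusted p = 0.00478), and without the filter on low counts, in a fit of the compared groups and in the fit of all 24 libraries (log2 -0.99, -0.99 and -0.94). That at day 6 was larger (log2FC -1.48, SE 0.16, adjusted p = 1.98e-05).

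Itgb4, which pairs with alpha6 and anchors hemidesmosomes in epithelia, showed the largest fall of any member in PMs. It measured 136 and 150.4 CPM on day 0, 10.9 and 8.85 on day 3 and 7.44 and 12.3 on day 6 in PMs (log2FC -3.92, SE 0.23, adjusted p = 4.35e-07), with no overlap between day 0 and later days. In C2C12 cells the same gene stood at 1.16 to 2.15 CPM in the siControl libraries, 1.46 and 1.19 CPM at day 0 and 2.15 and 2.15 CPM at day 3 (log2FC 0.66, SE 0.32, adjusted p = 0.130). Epithelial markers summed to 1.18 to 37.2 CPM over the PM libraries. Of them Epcam was at most 0.148 CPM. Over the siControl days Cldn4 went from 15.7 and 21.4 CPM at day 0 to 0.645 and 0.329 CPM at day 3 and 0.291 and 0.554 CPM at day 6. The 5 epithelial markers together summed to 17.9 and 22.6 CPM, 4.18 and 3.03 CPM and 3.43 and 2.54 CPM on those days. Cldn4 was thus most of the sum at day 0 and the smaller part of it later, and the other markers as a group did not fall with it. After siTead1/4 at day 0 the epithelial markers summed to 29.5 and 37.2 CPM, above 17.9 and 22.6 CPM in siControl, whereas Itgb4 was lower, as given below. At days 3 and 6 these sums overlapped siControl. The part of such cells in the Itgb4 result was not tested. Itgb1, the partner of alpha7, alpha6 and alpha3 in muscle, measured 1289 and 1455 CPM on day 0, 1842 and 1897 on day 3 and 1737 and 1927 on day 6 in C2C12 cells. In PMs Itgb1 measured 891 and 867 CPM on day 0, 1079 and 1069.8 on day 3 and 1639.8 and 1455 on day 6. Its change at day 3 was 0.41 (SE 0.21, adjusted p = 0.152) on the log2 scale in C2C12 cells and 0.23 (SE 0.10, adjusted p = 0.0579) in PMs. At day 6 in PMs it was 0.75 (SE 0.10, adjusted p = 6.82e-05), below the fold threshold.

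**Figure D2:**
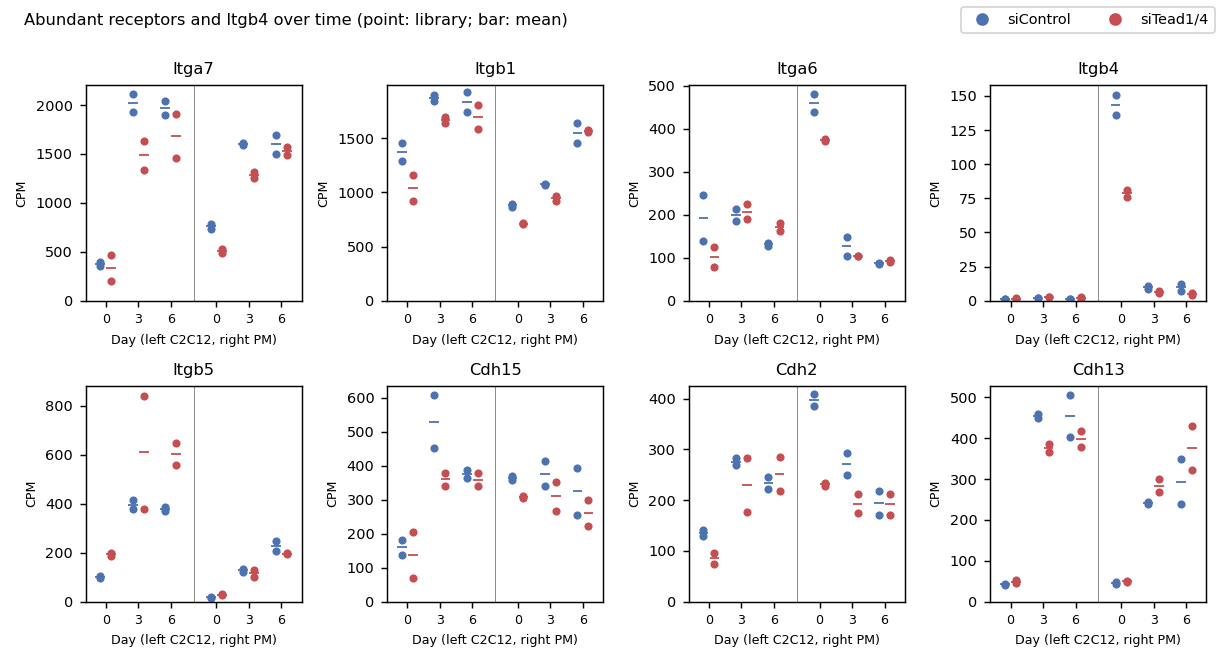
Levels of 8 receptors in every library, in CPM on linear axes that start at 0, by day, for C2C12 cells (left of the line in each panel) and PMs (right), with siControl and siTead1/4 side by side; points are libraries and bars are means. In siControl, Itga7, Itgb5 and Cdh13 at day 3 lie above day 0 in both cell types, Itga6 and Itgb4 lie below day 0 in PMs, and Cdh2 at days 3 and 6 lies above day 0 in siControl C2C12 cells and below it in siControl PMs.

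Chains of the vitronectin and fibronectin receptors were called in part. Itgb5, a partner of alphav in a vitronectin receptor, measured 18.2 and 16.2 CPM on day 0, 122 and 132 on day 3 and 208 and 247 on day 6 in PMs (log2FC 2.83, SE 0.15, adjusted p = 2.95e-07). In C2C12 cells Itgb5 measured 103 and 96.2 CPM on day 0, 414 and 377 on day 3 and 386 and 372 on day 6 (log2FC 1.95, SE 0.32, adjusted p = 0.00102). It rose in both. Itgb3, the other beta chain of that kind, measured 82.2 and 93.8 CPM on day 0, 42.4 and 54.9 on day 3 and 29 and 39.8 on day 6 in C2C12 cells. It was lower there at day 6 (log2FC -1.40, SE 0.25, adjusted p = 0.00168) and below the fold threshold at day 3 (log2FC -0.89, SE 0.25, adjusted p = 0.0175). In PMs it measured 14.7 and 11.8 CPM on day 0, 14.1 and 13.3 on day 3 and 21.2 and 12.7 on day 6 and days 0 and 3 overlapped (log2FC -0.01, SE 0.26, adjusted p = 0.973). Itgav, the alpha chain both use, measured 199 and 192 CPM on day 0, 203 and 241 on day 3 and 191 and 240.0 on day 6 in C2C12 cells (log2FC 0.15, SE 0.26, adjusted p = 0.685). In PMs Itgav measured 163 and 138 CPM on day 0, 206 and 175 on day 3 and 324 and 208 on day 6 (log2FC 0.28, SE 0.20, adjusted p = 0.244). Neither change passed the test.

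Itga5, the fibronectin receptor chain, measured 126 and 105 CPM on day 0, 180.4 and 165 on day 3 and 284 and 214 on day 6 in PMs and was called at day 6 (log2FC 1.04, SE 0.15, adjusted p = 1.29e-04). This call of Itga5 was lost without siControl day 6 replicate 1 (log2 0.83, adjusted p = 9.28e-04) or siControl day 0 replicate 2 (log2 0.91, adjusted p = 0.00252). In C2C12 cells it measured 254 and 341 CPM on day 0, 244 and 254 on day 3 and 224 and 234 on day 6 (log2FC -0.29, SE 0.26, adjusted p = 0.404). Itgb6 and Itgb8, further partners of alphav that take part in TGF-beta activation, rose in C2C12 cells (log2 fold changes at day 3 3.24 and 1.56, adjusted p = 1.86e-04 and 0.00730). Itgb8 went the other way in PMs, where it fell from 11.8 and 17 CPM to 2.92 and 5.13 CPM (log2FC -1.89, SE 0.28, adjusted p = 1.99e-04). Itga8 is a lowly expressed gene of this group. It was at the counting floor in C2C12 cells at day 0, with 0 and 1 reads, and had 7 and 21 reads at day 3. That is at least 4.28-fold higher than 3 reads per library would give; its level at day 6 was 0.0964 and 0.134 CPM. In PMs Itga8 measured 2.42 and 1.44 CPM on day 0, 0.617 and 0.556 on day 3 and 1.65 and 0.652 on day 6 and was lower at day 3 (log2FC -1.78, SE 0.45, adjusted p = 0.00591). This call of Itga8 was lost without siControl day 0 replicate 1 (log2 -1.34, adjusted p = 0.0574). Itga2b, the platelet fibrinogen receptor chain, rose in PMs from 1.06 and 1.32 CPM to 6.57 and 7.0 CPM (log2FC 2.46, SE 0.31, adjusted p = 7.03e-05). The 4 platelet markers in the table summed to 0.445 and 0.395 CPM at day 0, 0.87 and 0.657 CPM at day 3 and 0.841 and 1.21 CPM at day 6 in the same cells. Nearly all of this was Gp1bb, and Pf4 and Gp9 were at most 0.306 and 0.031 CPM in any library; the part of such cells was not tested.

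Of the collagen receptors, Itga11, which forms a fibrillar collagen receptor with beta1, showed the largest rise from day 0 to day 3 of a member that was above the counting floor of 3 reads at day 0, in both cell types. It measured 0.479 and 0.249 CPM on day 0, 9.39 and 18.8 on day 3 and 9.46 and 17.3 on day 6 in C2C12 cells (log2FC 5.29, SE 0.82, adjusted p = 7.31e-04). In PMs it measured 0.254 and 0.254 CPM on day 0, 7.07 and 7.0 on day 3 and 16.5 and 20.1 on day 6 (log2FC 4.72, SE 0.22, adjusted p = 1.49e-07) and rose again between days 3 and 6 (log2FC 1.37, SE 0.16, adjusted p = 0.00233). Day 0 lay apart from the later days in all these libraries. Itga10 rose in C2C12 cells from 0.929 and 1.26 CPM to 21 and 18.8 CPM at day 3 (log2FC 4.13, SE 0.62, adjusted p = 5.89e-04), and Itga1 rose in PMs from 2.54 and 1.32 CPM to 7.38 and 7.0 CPM (log2FC 1.82, SE 0.53, adjusted p = 0.0127). Fibroblast markers also differed between the days in these siControl libraries. In PMs Col1a1 went from 74.7 and 47.3 CPM on day 0 to 1124 and 1024 on day 3 and 2840.0 and 1796 on day 6, and Dcn from 1.23 and 2.14 to 4.85 and 2.78 and 64.3 and 40.2 CPM. In C2C12 cells Col1a1 went from 49.8 and 43.8 to 191 and 255 and 163 and 184 CPM, and Dcn from 1.04 and 0.675 to 181 and 70.6 and 201 and 36.2 CPM. The 7 markers summed to 552 and 565 CPM on day 0 and 1473 and 1595 on day 3 in PMs and to 839 and 1342 and 2714 and 3355 CPM in C2C12 cells, with Tcf21 at 0 in all libraries. A part of fibroblast-like cells in these rises was not tested.

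Itga4, which pairs with beta1 or beta7 and binds VCAM-1 and fibronectin, was expressed in PMs at all days, with 47.1 and 56 CPM on day 0, 12.8 and 43.8 on day 3 and 42.6 and 58.7 on day 6. The 2 libraries at day 3 stood apart from each other and the change did not pass the test (log2FC -0.92, SE 0.42, adjusted p = 0.0816). In C2C12 cells Itga4 rose, with 1.01 and 2.27 CPM on day 0, 12.2 and 19.9 on day 3 and 15.8 and 18.4 on day 6 (log2FC 3.22, SE 0.36, adjusted p = 1.09e-04). Itga9, its closest relative, rose in both cell types, in C2C12 cells from 0.0844 and 0.0889 CPM to 3.89 and 6.78 CPM at day 6 (log2FC 5.85, SE 0.64, adjusted p = 8.28e-05). In PMs it went from 4.24 and 4.14 CPM to 35.2 and 74.9 CPM (log2FC 3.65, SE 0.41, adjusted p = 2.49e-05). Itgb7, a partner of alpha4 on lymphocytes, showed the largest fall of any member in C2C12 cells. It measured 8.7 and 14.7 CPM on day 0, 0.189 and 0.202 on day 3 and 0.289 and 0.0334 on day 6 there (log2FC -5.92, SE 0.67, adjusted p = 1.10e-04). In PMs Itgb7 measured 0.36 and 0.31 CPM on day 0, 0.196 and 0.101 on day 3 and 0.0647 and 0.163 on day 6 (log2FC -1.23, SE 0.52, adjusted p = 0.0639).

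Integrin chains best known from white blood cells were found at low levels in these myogenic cultures. Itgam, the CD11b chain, was at the floor in C2C12 cells at day 0 (2 and 2 reads) and measured 0.967 and 1.48 CPM at day 3 and 0.694 and 1.1 CPM at day 6, at least 17.7-fold and 13-fold higher than 3 reads per library would give. In PMs it measured 0.933 and 1.16 CPM on day 0, 4.1 and 2.91 on day 3 and 1.26 and 2.38 on day 6 (log2FC 1.69, SE 0.37, adjusted p = 0.00276). Itgal, the CD11a chain, measured 0.657 and 0.592 CPM on day 0, 4.49 and 4.95 on day 3 and 1.91 and 3.0 on day 6 in PMs and rose (log2FC 2.85, SE 0.37, adjusted p = 7.37e-05). The siControl C2C12 libraries held 4 to 12 reads of it, 0.141 and 0.213 CPM at day 0, 0.142 and 0.162 CPM at day 3 and 0.0771 and 0.20 CPM at day 6. Itgae measured 0.619 and 0.338 CPM on day 0, 0.118 and 0.0607 on day 3 and 0.251 and 0.301 on day 6 in C2C12 cells. It fell there at day 3 (log2FC -2.42, SE 0.58, adjusted p = 0.00809). This call of Itgae was lost without siControl day 0 replicate 1 (log2 -1.94, adjusted p = 0.0630) or siControl day 3 replicate 2 (log2 -2.01, adjusted p = 0.0866). Its PM levels were 0.339 and 0.31 CPM on day 0, 0.281 and 0.101 on day 3 and 0.323 and 0.228 on day 6 (log2FC -0.84, SE 0.53, adjusted p = 0.196). The 7 white blood cell markers summed to 9.29 and 7.52 CPM at day 0, 5.12 and 3.22 CPM at day 3 and 6.59 and 3.11 CPM at day 6 in C2C12 cells without knockdown. In siControl PMs they summed to 2.78 and 2.82, 1.15 and 1.47 and 2.78 and 2.9 CPM on those days. Among them Cd14 stood at 2.31 to 7.72 CPM over the C2C12 libraries and 0.228 to 0.817 CPM over the PM libraries. Cd68 stood at 0.526 to 2.06 and 0.505 to 1.8 CPM, and Ptprc at no more than 0.0593 CPM in any of the 24 libraries. The part of white blood cells in these integrin values was not tested.

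Among the cadherins, the 2 known from myoblast fusion moved differently in the cell types. Cdh15 (M-cadherin) measured 181 and 138 CPM on day 0, 607 and 451 on day 3 and 388 and 363 on day 6 in C2C12 cells and rose at day 3 (log2FC 1.69, SE 0.41, adjusted p = 0.00849). This call of Cdh15 was lost without siControl day 3 replicate 1 (log2 1.47, adjusted p = 0.0529) or siControl day 0 replicate 2 (log2 1.51, adjusted p = 0.0703). In PMs it measured 369.9 and 359 CPM on day 0, 339 and 413 on day 3 and 255 and 393 on day 6, and days 0 and 3 overlapped (log2FC -0.01, SE 0.21, adjusted p = 0.973). Cdh2 (N-cadherin) measured 141 and 129.9 CPM on day 0, 283 and 268 on day 3 and 222 and 246 on day 6 in C2C12 cells, a higher value at day 3 that stayed just below the fold threshold (log2FC 0.98, SE 0.25, adjusted p = 0.0109). In PMs Cdh2 measured 385 and 408 CPM on day 0, 249 and 293 on day 3 and 171 and 218 on day 6 and was called lower at day 6 (log2FC -1.09, SE 0.16, adjusted p = 1.42e-04). This call of Cdh2 was lost without siControl day 6 replicate 1 (log2 -0.92, adjusted p = 0.00155).

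Cdh13 (T-cadherin), which has a lipid anchor in place of a cytoplasmic tail, rose in both cell types. It measured 43.6 and 41 CPM on day 0, 460.0 and 449 on day 3 and 504 and 402 on day 6 in C2C12 cells (log2FC 3.38, SE 0.20, adjusted p = 3.42e-06). In PMs Cdh13 measured 48.4 and 42.5 CPM on day 0, 244 and 239.9 on day 3 and 238 and 348 on day 6 (log2FC 2.36, SE 0.19, adjusted p = 3.13e-06). Cdh11, a cadherin of mesenchymal cells, measured 4.67 and 7.93 CPM on day 0, 23.8 and 54.2 on day 3 and 30.4 and 58.5 on day 6 in C2C12 cells (log2FC 2.59, SE 0.49, adjusted p = 0.00240). Its PM levels were 40.8 and 67.4 CPM on day 0, 68.1 and 89.7 on day 3 and 139.9 and 114 on day 6. The change was not called at day 3 (log2FC 0.49, SE 0.26, adjusted p = 0.123) and was called at day 6 (log2FC 1.16, SE 0.26, adjusted p = 0.00259). The day 6 call of Cdh11 was lost without siControl day 0 replicate 1 (log2 0.85, adjusted p = 0.0248). Cdh1 (E-cadherin) measured 0.281 and 0.462 CPM on day 0, 5.57 and 7.51 on day 3 and 7.34 and 9.69 on day 6 in C2C12 cells and rose (log2FC 4.05, SE 0.34, adjusted p = 1.59e-05). In PMs Cdh1 measured 0.148 and 0.197 CPM on day 0, 0.224 and 0.632 on day 3 and 0.518 and 0.489 on day 6 (log2FC 1.27, SE 0.58, adjusted p = 0.0804). Epithelial markers summed to at most 1.11 CPM in any C2C12 library.

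Less abundant cadherins also moved. Cdh20, a type II cadherin, measured 0.0848 and 0.0845 CPM on day 0, 0.786 and 0.682 on day 3 and 3.88 and 3.52 on day 6 in PMs and rose (log2FC 3.01, SE 0.75, adjusted p = 0.00535), where the C2C12 libraries held at most 2 reads each. Cdh17 (LI-cadherin) measured 1.72 and 1.3 CPM on day 0, 0.0944 and 0.263 on day 3 and 0.366 and 0.10 on day 6 in C2C12 cells (log2FC -3.06, SE 0.78, adjusted p = 0.0112). In PMs Cdh17 measured 0.445 and 0.733 CPM on day 0, 0.168 and 0 on day 3 and 1.13 and 0.293 on day 6 (log2FC -2.86, SE 0.93, adjusted p = 0.0214). It fell in both at day 3. The C2C12 call was lost without siControl day 0 replicate 1 (log2 -2.84, adjusted p = 0.0504) or siControl day 3 replicate 1 (log2 -2.53, adjusted p = 0.0911). The PM call of Cdh17 was lost without siControl day 0 replicate 2 (log2 -2.48, adjusted p = 0.0910) or siControl day 3 replicate 2 (log2 -1.82, adjusted p = 0.115). Cdh23, a component of hair-cell tip links, rose in C2C12 cells from 0.676 and 0.604 CPM to 13 and 12.1 CPM (log2FC 4.25, SE 0.41, adjusted p = 4.06e-05) and was lower at day 6 in PMs (log2FC -1.55, SE 0.20, adjusted p = 5.62e-05). Cdh19 and Cdh5 differed between the PM replicates. Cdh19, a cadherin of Schwann cells, stood at 0.975 to 4.56 CPM in the PM replicate 1 libraries and at 0.0652 to 0.186 CPM in replicate 2, while Sox10, a Schwann cell marker, stood at 1.1 to 4.01 CPM and 0.0505 to 0.359 CPM. Cdh5, the endothelial VE-cadherin, stood at 3.26 to 7.02 CPM in replicate 1 and 0.958 to 3.2 CPM in replicate 2 of PMs, beside 0.462 to 2.3 CPM and 0.0249 to 0.169 CPM of the endothelial marker Emcn. Schwann cell markers summed to 107 to 370.2 CPM in replicate 1 and 93.2 to 359 CPM in replicate 2, and endothelial markers to 4.76 to 13.9 CPM and 3.53 to 5.98 CPM. The part of such cells in other PM values was not tested. Counts of members without the replicate 1 libraries are given in the last paragraph, with the limit of that fit. Neither Cdh19 nor Cdh5 was called during PM differentiation.

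Few members were called between days 3 and 6. In C2C12 cells edgeR called 0 of 36 members and 0% of all genes between day 3 and day 6. There 3 members had an unadjusted p under 0.05, and DESeq2 called 1 (Itga9), and neither share over all genes is given. In PMs 4 of 42 members were called, all higher (Cdh6, Cdh10, Cdh20 and Itga11), beside 2.8% of all genes. That count fell to 1 without siControl day 3 replicate 1, to 2 without siControl day 6 replicate 1, and was 1 to 3 over the 4 libraries left out in turn. A fit without all PM libraries of replicate 1 leaves 1 library in each PM group and cannot test this count.

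Itgb2, the beta chain of Itgam and Itgal, rose in C2C12 cells from 0.31 and 0.124 CPM to 1.51 and 1.28 CPM at day 3 (log2FC 2.7, SE 0.56, adjusted p = 0.00374). Cdh5 rose there as well, from 0.0282 and 0.0889 CPM to 0.283 and 0.344 CPM (log2FC 2.22, SE 0.71, adjusted p = 0.0316). Emcn stood at 0 CPM in every C2C12 library. Summed over 7 endothelial markers, the siControl C2C12 libraries held 2.11 and 1.72 CPM before differentiation, and less by day 3, with 0.944 and 1.19 CPM. The part of endothelial cells in the Cdh5 rise was not tested. Cdh24 fell in both cell types and Cdh18 in PMs, and Cdh10 and Itgad rose in PMs, at day 3. By day 6 Cdh6 and Itga2 were also called higher in PMs, and Cdh16 was called in neither cell type.

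Among the 36 members tested in both cell types, 6 rose in both at day 3 (Cdh13, Itga7, Itga9, Itga11, Itgam, Itgb5), 3 fell in both (Cdh17, Cdh24, Itga3) and 2 were called in opposite directions (Itga8 and Itgb8, higher in C2C12 cells and lower in PMs). Over all genes 16% were called higher and 12.7% lower at day 3 in C2C12 cells, and 17.5% and 14.9% in PMs. The share of all genes called in both cell types is not given, so the shared counts cannot be set against it. The difference between the cell types was tested directly as an interaction. As the PM change minus the C2C12 change it was positive for 4 and negative for 15 of the 19 members called of 42. Of all genes 11.2% were called, 3.79% positive and 7.44% negative. Itgb4 differed by -4.57 (SE 0.36, adjusted p = 3.60e-07) on the log2 scale, Itga4 by -4.11 (SE 0.61, adjusted p = 1.86e-04) and Itgb7 by 4.70 (SE 0.94, adjusted p = 0.00250). Cdh2 differed by -1.58 (SE 0.30, adjusted p = 0.00171) and Itga6 by -1.91 (SE 0.34, adjusted p = 8.84e-04). For Itga7 (-1.35) and Cdh15 (-1.68) the difference was smaller, with adjusted p = 0.0183 and 0.0280. With 1 of the 8 libraries left out in turn, the Itga7 difference was still called in 1 and that of Cdh15 in 2 of the 8 fits, with adjusted p of up to 0.0774 and 0.122. A fit without the PM libraries of replicate 1 leaves 1 library in each PM group. The differences were then -1.31 for Itga7, -1.52 for Cdh15, -1.50 for Cdh2, -1.74 for Itga6 and 4.29 for Itgb7. PMs at day 0 already expressed Myog near its day 3 level, and the part of this in the differences was not tested.

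**Figure D3:**
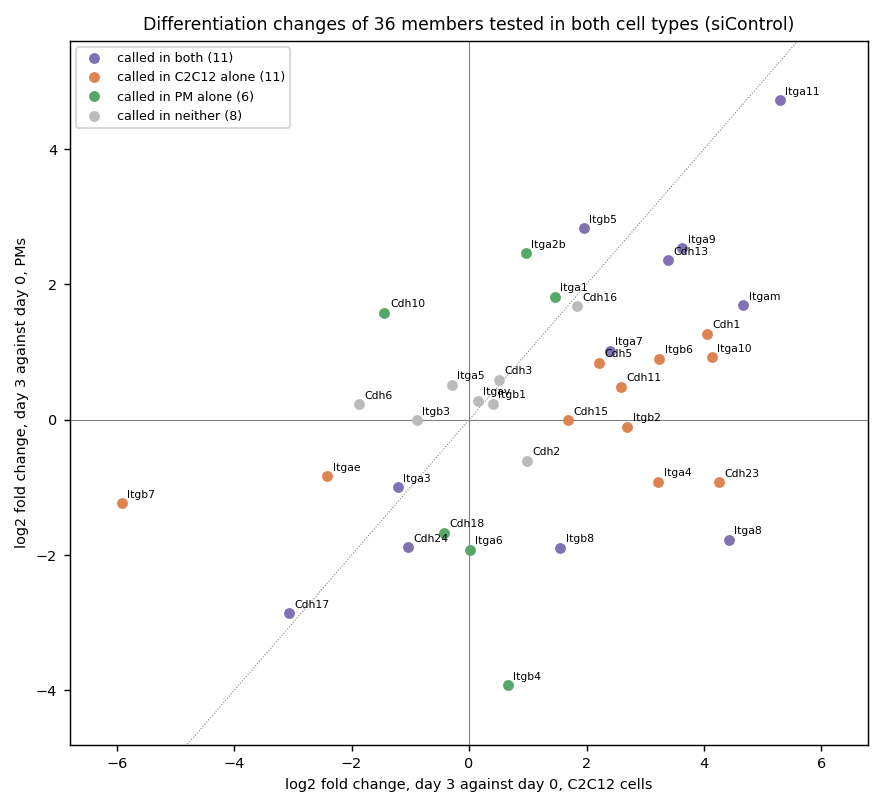
Log2 fold changes from day 0 to day 3 in siControl cells, C2C12 on the horizontal and PMs on the vertical axis, for the 36 members tested in both; colours give the cell types in which a member was called, and the dotted line marks equal change. Itga11 lies at the top right with log2 fold changes of 5.29 and 4.72, Itgb7 far to the left at -5.92 in C2C12 cells, and Itgb4 at the bottom at -3.92 in PMs; the fitted values of Itga8 and Itgam in C2C12 cells are set against a day 0 group at the counting floor.

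The cell types differed in their adhesion genes at each day. They also differed in Myog and Ckm at day 0, as given above, and the part of this in the values below was not tested. At day 0, 24 of 42 members were called between siControl PMs and C2C12 cells (19 higher in PMs, 5 lower), beside 26.8% of all genes. At day 3 it was 21 (12 higher, 9 lower; 29.8%) and at day 6 it was 24 (16 higher, 8 lower; 24.9%, of which 15.7% higher and 9.22% lower). A fit without the PM libraries of replicate 1 leaves 1 library in each PM group, so its calls are not compared here. Itgb4 was higher in PMs at day 0 (log2FC 6.76, SE 0.30, adjusted p = 7.68e-11) and at day 6 (log2FC 2.97, SE 0.27, adjusted p = 2.69e-07). Itga4 was higher at day 0 (log2FC 4.93, SE 0.49, adjusted p = 4.74e-07), and Cdh2 was also higher then (log2FC 1.55, SE 0.22, adjusted p = 2.19e-05) but not at day 6 (log2FC -0.26, SE 0.21, adjusted p = 0.348). Itgb3 and Itgb5 were lower in PMs at day 0 (log2 fold changes -2.73 and -2.53, adjusted p = 7.72e-07 and 7.64e-07). Cdh3 and Cdh4 (P- and R-cadherin) were more abundant in PMs. Cdh3 was higher at all 3 days (log2 fold changes 3.97, 4.07 and 5.47), and Cdh4, with 0 reads in all 6 siControl C2C12 libraries, was at least 14.6-fold higher at day 6. Itga7 differed at day 0 (log2FC 1.02, SE 0.26, adjusted p = 0.00434). This call of Itga7 was lost without C2C12 siControl day 0 replicate 2 (log2 0.92, adjusted p = 0.0503) or PM siControl day 0 replicate 1 (log2 0.94, adjusted p = 0.0357).

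Few members were called after siTead1/4: Itga4 higher and Itgam lower in differentiating C2C12 cells, and Itga3 lower in PMs at day 0. Itga11 was higher at day 0 and lower at day 3 in PMs. Cdh1 was called higher in C2C12 cells at day 0, Cdh20 in PMs at day 0 and Cdh4 in PMs at day 3. In C2C12 cells siTead1/4 changed 1 of 36 members at day 0, 2 at day 3 and 1 at day 6, beside 0.438%, 1.27% and 0.0457% of all tested genes. By direction this background was 0.137%, 0.19% and 0.0131% higher and 0.301%, 1.08% and 0.0327% lower. In PMs it changed 3 of 42 at day 0, 2 at day 3 and 0 at day 6, beside 2.6%, 3.3% and 0.743%. By direction it was 1.5%, 2.1% and 0.465% higher and 1.1%, 1.2% and 0.279% lower. At day 6 edgeR gave 6 members an unadjusted p under 0.05, and DESeq2 called 1 (Itgb4), and neither share over all genes is given. Called in at least 1 day were 3 members in C2C12 cells (1.67% of all genes) and 4 in PMs (5.41%). A PM fit with a term for the replicate number called 10, for which the share over all genes is not given. Without the PM libraries of replicate 1 the PM count was 0 at each day, where 0, 2 and 0 of all genes were called. That fit holds 1 library in each PM group, so it could call almost no gene and does not test these members. Median log2 fold changes over the tested members in the main fits ran from -0.08 to 0.10, against -0.01 to 0.02 over all genes.

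**Figure D4:**
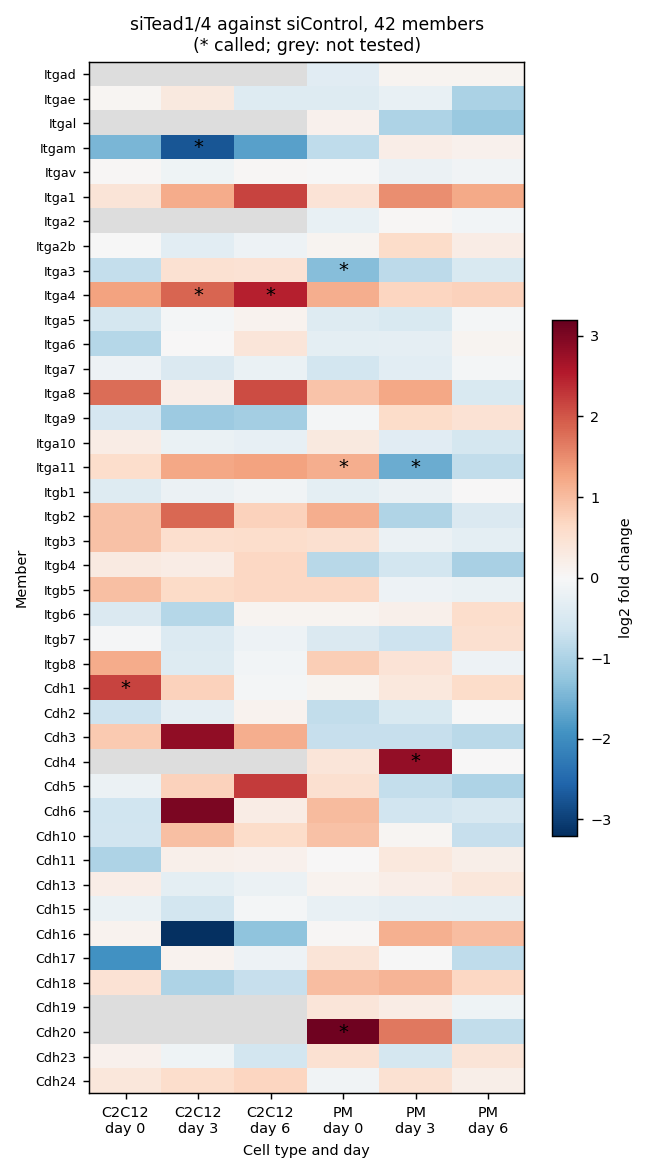
Log2 fold changes of siTead1/4 against siControl for the 42 tested members (rows) in each cell type and day (columns), with red for higher and blue for lower; stars mark called members and grey cells were not tested. Stars fall on Itga4 at 2 days and on Itgam and Cdh1 in C2C12 cells, and on Itga11 at 2 days and on Itga3, Cdh4 and Cdh20 in PMs; strong colours without a star, such as Cdh16 and Cdh6 at day 3 in C2C12 cells, did not pass the test.

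Itga4 was higher after siTead1/4 in C2C12 cells, where Tead4 was called lower at day 0 and day 3 and Tead1 at no day. Its siTead1/4 libraries measured 4.49 and 3.66 CPM on day 0, 64.3 and 54 on day 3 and 93.9 and 97.6 on day 6, against 1.01 and 2.27, 12.2 and 19.9 and 15.8 and 18.4 CPM in siControl, and the groups did not overlap at any day. The rise was called at day 3 (log2FC 1.86, SE 0.33, adjusted p = 0.0327) and day 6 (log2FC 2.49, SE 0.34, adjusted p = 0.0494), not at day 0 (log2FC 1.28, SE 0.35, adjusted p = 0.178). Both were lost when the fit held only the compared groups (adjusted p = 0.0723 and 0.112), and that at day 6 also under DESeq2 size factors (log2 2.48, adjusted p = 0.0521). The day 3 call was lost without siControl day 3 replicate 1 (log2 1.54, adjusted p = 0.242), siControl day 3 replicate 2 (log2 2.26, adjusted p = 0.107) or siTead1/4 day 3 replicate 2 (log2 1.99, adjusted p = 0.0801). The day 6 call of Itga4 was lost without any 1 of the 4 libraries (adjusted p = 0.172 to 0.515). In PMs siTead1/4 libraries measured 129.8 and 102 CPM on day 0, 43.2 and 49.3 on day 3 and 74.2 and 93.3 on day 6, with log2 fold changes of 1.16, 0.70 and 0.73 that did not pass the test (adjusted p = 0.122, 0.363 and 0.571). The difference between the cell types was not called at day 3 (-1.17, SE 0.57, adjusted p = 0.397) or day 6 (-1.76, SE 0.57, adjusted p = 0.502).

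Itgam went the other way in C2C12 cells. Its siTead1/4 libraries measured 0.132 and 0.232 CPM at day 3 and 0.259 and 0.266 CPM at day 6, with 5 and 10 reads at day 3, below both siControl libraries (log2FC -2.75, SE 0.48, adjusted p = 0.0322 at day 3). At day 0 its siControl libraries had 2 and 2 reads and its siTead1/4 libraries 1 and 0. In PMs the siTead1/4 libraries measured 0.494 and 0.691 CPM on day 0, 5.09 and 3.04 on day 3 and 1.93 and 2.05 on day 6 (log2FC 0.21, SE 0.35, adjusted p = 0.786 at day 3). The effect differed between the cell types at day 3 (2.93, SE 0.59, adjusted p = 0.0213). The C2C12 call was lost without any 1 of the 4 libraries (adjusted p = 0.0716 to 0.223) and ended in a fit of the compared groups (log2 -2.72, adjusted p = 0.0937).

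Cdh1 was higher in siTead1/4 C2C12 cells before differentiation, with 1.55 and 1.9 CPM against 0.281 and 0.462 CPM (log2FC 2.17, SE 0.33, adjusted p = 0.0322). At day 3 the siTead1/4 libraries measured 10.8 and 11.5 CPM (log2FC 0.74, SE 0.28, adjusted p = 0.252) and at day 6 7.26 and 8.84 CPM, overlapping siControl. The epithelial markers, summed, were at 1.08 and 0.914 CPM after siTead1/4 against 0.197 and 0.373 CPM in siControl at day 0, without overlap, with Krt8 at 0.564 and 0.256 against 0.0844 and 0.0711 CPM and Epcam at 0.0235 and 0.0732 against 0 and 0 CPM. Their part in the Cdh1 result was not tested. The day 0 call was lost without siControl day 0 replicate 1 (log2 1.89, adjusted p = 0.221), siControl day 0 replicate 2 (log2 2.59, adjusted p = 0.174) or siTead1/4 day 0 replicate 2 (log2 1.99, adjusted p = 0.0745). It also ended in a fit of the compared groups (log2 2.17, adjusted p = 0.228). In PMs Cdh1 stood at 0.148 to 0.899 CPM over all 12 libraries, with 0.212 and 0.158 CPM on day 0, 0.365 and 0.747 on day 3 and 0.606 and 0.899 on day 6 after siTead1/4.

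In PMs the laminin receptor chain Itga3 was lower after siTead1/4. It measured 46.9 and 37.7 CPM on day 0, 30.0 and 34 on day 3 and 30.7 and 27 on day 6, below both siControl libraries at each day, and was called at day 0 (log2FC -1.37, SE 0.16, adjusted p = 0.00160). This call of Itga3 held without any 1 of the 4 libraries. Without all PM libraries of replicate 1 the log2 fold change was -1.39, from 1 library in each PM group, which cannot test the call. At days 3 and 6 the difference was -0.83 (SE 0.16, adjusted p = 0.0127) and -0.50 (SE 0.16, adjusted p = 0.215). In C2C12 cells Itga3 measured 90.5 and 107 CPM on day 0, 157 and 54.8 on day 3 and 102 and 72.6 on day 6 after siTead1/4, lower than siControl at day 0 (log2FC -0.77, SE 0.40, adjusted p = 0.553) and with replicates far apart at day 3. The collagen receptor chain Itga11 changed direction over time in PMs. It measured 0.564 and 0.593 CPM against 0.254 and 0.254 CPM at day 0, where the libraries held 9 to 30 reads (log2FC 1.17, SE 0.25, adjusted p = 0.0207). Day 3 gave 2.17 and 2.52 CPM against 7.07 and 7.0 CPM (log2FC -1.60, SE 0.17, adjusted p = 8.29e-04), and day 6 gave 10.3 and 10.9 CPM against 16.5 and 20.1 CPM (log2FC -0.79, SE 0.16, adjusted p = 0.0452). The groups did not overlap at any day. The fibroblast marker Dcn stood at 1.05 and 1.99 CPM against 4.85 and 2.78 CPM at day 3 and at 8.37 and 10.6 CPM against 64.3 and 40.2 CPM at day 6, while the 7 fibroblast markers summed to 1459 and 1973 against 1473 and 1595 CPM at day 3 and 3329 and 2578 against 3872 and 2799 CPM at day 6. Their part in the Itga11 result was not tested. The day 3 call held without any 1 of the 4 libraries but ended in the fit of all 24 libraries (log2 -1.59, adjusted p = 0.143), and the day 0 call was lost without any 1 of the 4 libraries (adjusted p = 0.0866 to 0.178). The day 0 call also ended in a fit of the compared groups (log2 1.20, adjusted p = 0.0704) and in the fit of all 24 libraries (log2 1.18, adjusted p = 0.540). Without all PM libraries of replicate 1 the log2 fold changes of Itga11 at days 0 and 3 were 1.22 and -1.46, from 1 library in each PM group. In C2C12 cells Itga11 measured 0.728 and 0.256 CPM on day 0, 52.4 and 14.8 on day 3 and 44 and 20.8 on day 6 after siTead1/4, with 9.39 and 18.8 CPM in siControl at day 3 (log2FC 1.23, SE 0.63, adjusted p = 0.430).

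In siTead1/4 PMs Cdh20 was called higher at day 0 and Cdh4 at day 3, while Cdh4 at day 0 overlapped siControl. Cdh20 had 14 and 59 reads at day 0 against 4 and 3 in siControl (log2FC 3.11, SE 0.73, adjusted p = 0.0303). At day 3 it measured 3.2 and 1.54 CPM against 0.786 and 0.682 CPM (log2FC 1.69, SE 0.53, adjusted p = 0.0839), and at day 6 1.59 and 2.73 CPM against 3.88 and 3.52 CPM (log2FC -0.78, SE 0.49, adjusted p = 0.631). Its siTead1/4 libraries were above siControl at days 0 and 3 and below it at day 6. Cdh4 measured 0.47 and 0.77 CPM on day 0, 1.52 and 2.09 on day 3 and 0.981 and 1.36 on day 6 after siTead1/4. Its siControl libraries measured 0.191 and 0.789 CPM on day 0, 0.14 and 0.354 on day 3 and 1.0 and 1.3 on day 6, and the rise was called at day 3 (log2FC 2.82, SE 0.61, adjusted p = 0.0209). The Cdh20 day 0 call was lost without siControl day 0 replicate 1 (log2 3.11, adjusted p = 0.194), siControl day 0 replicate 2 (log2 3.10, adjusted p = 0.142) or siTead1/4 day 0 replicate 2 (log2 1.91, adjusted p = 0.207). The Cdh4 call was lost without siControl day 3 replicate 1 (log2 2.33, adjusted p = 0.149), siTead1/4 day 3 replicate 1 (log2 3.03, adjusted p = 0.0510) or siTead1/4 day 3 replicate 2 (log2 2.58, adjusted p = 0.0972). In C2C12 cells no library held more than 2 reads of Cdh20 or 1 read of Cdh4.

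In the mm9 build of the expression table the called members lie on chromosome 2 (Itga4, chr2:79095583-79173280; Cdh4, chr2:179177136-179634078), 7 (Itgam, chr7:135206154-135271674), 8 (Cdh1, chr8:109127251-109194146), 11 (Itga3, chr11:94905788-94938115), 9 (Itga11, chr9:62525633-62631789) and 1 (Cdh20, chr1:106665106-106892058). Promoter sequence was searched for the MCAT core, since siTead1/4 lowers the factors that bind it. CATTCC was looked for on both strands of the 250 bases before the RefSeq start (build GRCm38.p6, whereas the expression table uses mm9) of the 31 members with an entry. It was present in 5 of them (Cdh9, Cdh10, Cdh20, Itga10 and Itgb1), 16.1% when counted per gene. The 31 members had 35 promoter entries. Over all 32851 promoter entries of the same length the share was 12.6%, counted per entry, so the 2 shares are not in the same unit. Of the called members, Cdh20 held it, Itga3, Itga4, Itga11 and Itgam did not, and Cdh1 and Cdh4 had no entry. The Cdh20 stretch is shown as the 1 match among the members called for siTead1/4, and that of Itgb1 as the match in the most abundant integrin chain; both are on the strand of the gene, with CATTCC or its reverse complement GGAATG in capitals. The Cdh20 match begins 107 bases before the start, in chr1:104768373-104768458, plus strand, and that of Itgb1 7 bases before it, in chr8:128685607-128685653, plus strand.
Cdh20: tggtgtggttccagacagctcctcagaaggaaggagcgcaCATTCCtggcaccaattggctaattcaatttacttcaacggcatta
Itgb1: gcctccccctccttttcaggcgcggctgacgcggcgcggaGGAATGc
These are matches of letters, and binding was not measured in these files.

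**Figure D5:**
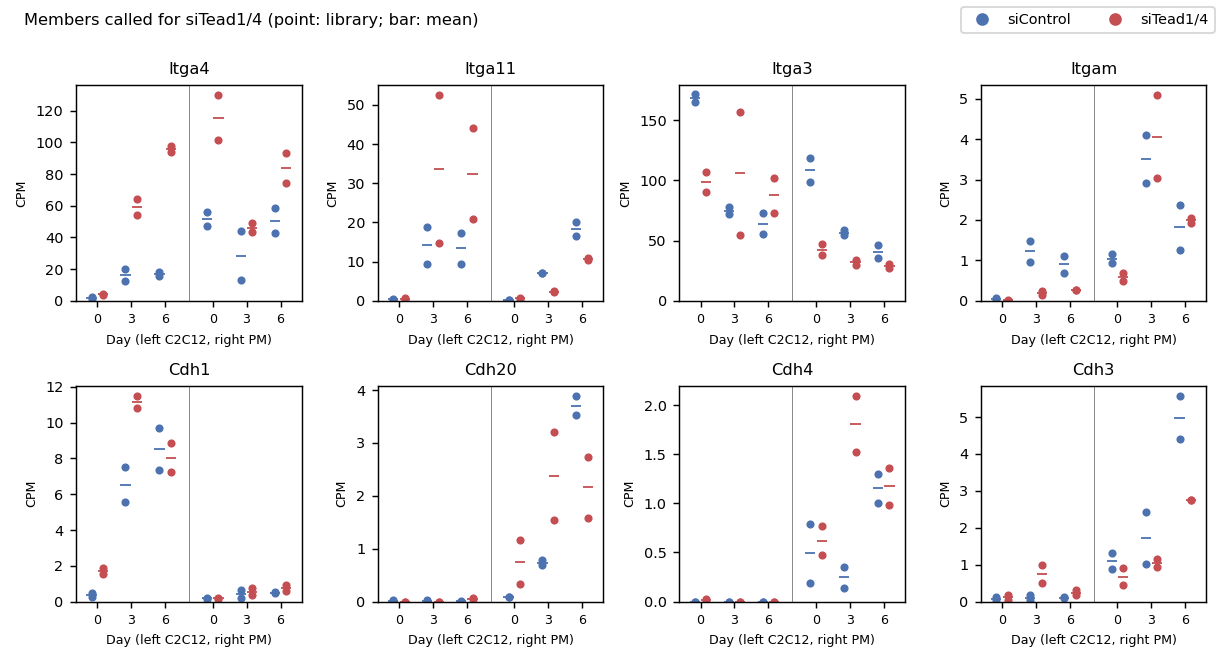
Levels of the 7 members called for siTead1/4, and of Cdh3, in every library, in CPM on linear axes that start at 0, by day, for C2C12 cells (left of the line in each panel) and PMs (right); points are libraries and bars are means. In C2C12 cells the siTead1/4 points of Itga4 lie above siControl and those of Itgam at days 3 and 6 below it, while in PMs the Itga11 points are below siControl at days 3 and 6 and the Itga3 points below at all 3 days.

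Whether siTead1/4 acted differently in the 2 cell types was tested for each member at each day. For Cdh3 and Itgam it did at day 3. The difference was called for 2 of 42 members at day 3, Cdh3 and Itgam, beside 1.25% of all genes, and for 0 at days 0 and 6 (0.00591% and 0.0354% of all genes). At days 0 and 6, 4 and 13 members had an unadjusted p under 0.05 and DESeq2 called 0 and 1 (Itgb4). The shares of all genes with such p-values or DESeq2 calls are not given, so these counts cannot be set against all genes. Without the PM libraries of replicate 1 the day 3 differences were -3.95 for Cdh3 and 2.79 for Itgam, from 1 library in each PM group. Cdh3 after siTead1/4 measured 0.503 and 0.996 CPM in C2C12 cells against 0.165 and 0.0405 CPM (log2FC 2.85, SE 0.73, adjusted p = 0.0966), and 0.923 and 1.15 CPM in PMs against 1.01 and 2.43 CPM (log2FC -0.75, SE 0.44, adjusted p = 0.352). Neither effect was called in its own cell type. Their difference lay at the threshold (-3.62, SE 0.86, adjusted p = 0.0499). It was lost without C2C12 siControl day 3 replicate 1 (log2 -4.85, adjusted p = 0.0638), C2C12 siControl day 3 replicate 2 (log2 -2.90, adjusted p = 0.252), C2C12 siTead1/4 day 3 replicate 2 (log2 -3.03, adjusted p = 0.167), PM siControl day 3 replicate 1 (log2 -4.11, adjusted p = 0.0528), PM siTead1/4 day 3 replicate 1 (log2 -3.47, adjusted p = 0.183), PM siControl day 3 replicate 2 (log2 -2.86, adjusted p = 0.199) or PM siTead1/4 day 3 replicate 2 (log2 -3.79, adjusted p = 0.115). A fit of the compared groups also ended it (log2 -3.62, adjusted p = 0.144). The difference for Itgam was lost without C2C12 siControl day 3 replicate 2 (log2 2.59, adjusted p = 0.118), PM siControl day 3 replicate 1 (log2 3.2, adjusted p = 0.0570), PM siTead1/4 day 3 replicate 1 (log2 2.52, adjusted p = 0.105) or PM siControl day 3 replicate 2 (log2 2.7, adjusted p = 0.0929), and in a fit of the compared groups (log2 2.94, adjusted p = 0.0848). The other siControl levels of Cdh3 were 0.113 and 0.0355 and 0.116 and 0.10 CPM at days 0 and 6 in C2C12 cells and 1.31 and 0.873 and 5.56 and 4.4 CPM in PMs. After siTead1/4 they were 0.188 and 0.0366, 0.173 and 0.31, 0.917 and 0.435 and 2.74 and 2.76 CPM in the same order.

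Itga7, Itgb1, Itga6 and Itgb4 were not called in the main edgeR fits after siTead1/4 at any day in either cell type, whereas DESeq2 called Itgb4 in PMs at day 6. For siTead1/4 in PMs the main fit called 4 members, a fit with a term for the replicate number 10 and a fit of only the compared groups 8. The members added by those fits are not named here, so the calls in this and the following paragraphs are those of the main fits. Itga7 measured 529.6 and 484 CPM on day 0, 1259 and 1312 on day 3 and 1495 and 1576 on day 6 in siTead1/4 PMs, below both siControl libraries at days 0 and 3. The difference at day 0 had a low adjusted p but stayed below the fold threshold (log2FC -0.59, SE 0.11, adjusted p = 0.0100). In C2C12 cells it measured 205 and 467 CPM on day 0, 1336 and 1634 on day 3 and 1459 and 1904 on day 6 (log2FC -0.47, SE 0.34, adjusted p = 0.613 at day 3). Itgb1 measured 918 and 1162 CPM on day 0, 1642 and 1691 on day 3 and 1586 and 1806 on day 6 in C2C12 cells. In PMs Itgb1 measured 715 and 709 CPM on day 0, 921 and 965 on day 3 and 1578 and 1552 on day 6, with log2 fold changes of -0.40 to 0.02. Itga6 measured 126 and 78.6 CPM on day 0, 189 and 224 on day 3 and 180.2 and 163 on day 6 in C2C12 cells (log2FC -0.92, SE 0.28, adjusted p = 0.238 at day 0). In PMs Itga6 measured 370.4 and 375 CPM on day 0, 103 and 104 on day 3 and 94.8 and 89.7 on day 6 (log2FC -0.31, SE 0.14, adjusted p = 0.221). Itgb4 measured 76.1 and 81.1 CPM on day 0, 5.73 and 7.42 on day 3 and 4.39 and 5.3 on day 6 in PMs. These lay below siControl at each day, with log2 fold changes of -0.88 (SE 0.20, adjusted p = 0.0281) at day 0, -0.59 at day 3 and -1.03 (SE 0.23, adjusted p = 0.0663) at day 6. Its C2C12 libraries measured 1.6 and 1.65 CPM on day 0, 2.65 and 2.55 on day 3 and 1.44 and 2.48 on day 6.

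The other integrin chains described above were not called in the main fits either. Itgb5 measured 188 and 199 CPM on day 0, 840.4 and 380.2 on day 3 and 647 and 559 on day 6 in siTead1/4 C2C12 cells (log2FC 0.96, SE 0.31, adjusted p = 0.274 at day 0). In PMs Itgb5 measured 29.6 and 25.7 CPM on day 0, 99.2 and 131 on day 3 and 199 and 193 on day 6 (log2FC 0.67, SE 0.15, adjusted p = 0.0222). Itgb3 measured 179.6 and 161 CPM on day 0, 85.9 and 57.7 on day 3 and 44.5 and 56.8 on day 6 in C2C12 cells (log2FC 0.95, SE 0.25, adjusted p = 0.163). In PMs Itgb3 measured 20.5 and 17.8 CPM on day 0, 13.2 and 11 on day 3 and 16.8 and 10.6 on day 6 (log2FC 0.52, SE 0.26, adjusted p = 0.261). Both stood above siControl at day 0 in each cell type without being called. Itga5 measured 149.7 and 249 CPM on day 0, 272 and 216 on day 3 and 222 and 267 on day 6 in C2C12 cells. In PMs Itga5 measured 88.6 and 86.3 CPM on day 0, 121 and 126 on day 3 and 262 and 218 on day 6 (log2FC -0.49, SE 0.15, adjusted p = 0.0696 at day 3). Itgav measured 244 and 158 CPM on day 0, 246 and 167 on day 3 and 207 and 234 on day 6 in C2C12 cells. In PMs Itgav measured 161 and 142 CPM on day 0, 174 and 161 on day 3 and 277 and 216 on day 6, with log2 fold changes of -0.19 to 0.04. Itga8 measured 0 and 0.11 CPM on day 0, 0.556 and 0.162 on day 3 and 0.692 and 0.288 on day 6 in C2C12 cells. In PMs Itga8 measured 4.14 and 3.26 CPM on day 0, 1.46 and 1.35 on day 3 and 1.04 and 0.589 on day 6. Itgal measured 0.846 and 0.553 CPM on day 0, 1.85 and 2.94 on day 3 and 0.837 and 1.3 on day 6 in PMs. The siTead1/4 C2C12 libraries of Itgal held 0 to 10 reads. Itgae measured 0.564 and 0.402 CPM on day 0, 0.159 and 0.0695 on day 3 and 0.259 and 0.155 on day 6 in C2C12 cells. In PMs Itgae measured 0.165 and 0.316 CPM on day 0, 0.172 and 0.149 on day 3 and 0.173 and 0.093 on day 6. Itgb7 measured 7.54 and 15.1 CPM on day 0, 0.0794 and 0.208 on day 3 and 0.173 and 0.155 on day 6 in C2C12 cells. In PMs Itgb7 measured 0.235 and 0.257 CPM on day 0, 0.107 and 0.0747 on day 3 and 0.231 and 0.093 on day 6. None of these was called in the main fits, and Itgal was not tested in C2C12 cells.

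Among the muscle cadherins, Cdh15 measured 69.1 and 203 CPM on day 0, 340.3 and 379 on day 3 and 377 and 339.9 on day 6 in siTead1/4 C2C12 cells (log2FC -0.58, SE 0.40, adjusted p = 0.588 at day 3). In PMs Cdh15 measured 312 and 305 CPM on day 0, 267 and 351 on day 3 and 221 and 299.5 on day 6 (log2FC -0.29, SE 0.21, adjusted p = 0.479). The 2 C2C12 libraries at day 0 lay on either side of siControl. Cdh2 measured 228 and 234 CPM on day 0, 174 and 212 on day 3 and 171 and 213 on day 6 in PMs. These lay below both siControl libraries at days 0 and 3, with a day 0 difference under the fold threshold (log2FC -0.79, SE 0.16, adjusted p = 0.0139). In C2C12 cells Cdh2 measured 96.7 and 74.2 CPM on day 0, 284 and 177 on day 3 and 286 and 217 on day 6 (log2FC -0.67, SE 0.25, adjusted p = 0.356 at day 0). Cdh13 measured 45.8 and 51.7 CPM on day 0, 366 and 386 on day 3 and 378 and 419 on day 6 in C2C12 cells. In PMs Cdh13 measured 51 and 47.6 CPM on day 0, 267 and 300.1 on day 3 and 322 and 430.1 on day 6, with log2 fold changes of -0.30 to 0.36. Cdh11 measured 3.2 and 3.18 CPM on day 0, 28.6 and 60.8 on day 3 and 46.6 and 50.1 on day 6 in C2C12 cells (log2FC -0.99, SE 0.49, adjusted p = 0.528). In PMs Cdh11 measured 44.3 and 65.6 CPM on day 0, 96.7 and 106 on day 3 and 163 and 126 on day 6 (log2FC 0.35, SE 0.25, adjusted p = 0.476 at day 3). Cdh17 measured 0.54 and 0.219 CPM on day 0, 0.265 and 0.139 on day 3 and 0.403 and 0.0665 on day 6 in C2C12 cells. In PMs Cdh17 measured 0.87 and 0.691 CPM on day 0, 0.107 and 0.0498 on day 3 and 0.52 and 0.279 on day 6. No cadherin other than Cdh1, Cdh4 and Cdh20 was called for siTead1/4 in the main fits.

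The molecules that work with these receptors were followed in 3 lists. Of the linkers and signalling proteins that tie integrins to actin, 19 of 21 were tested in C2C12 cells and 20 in PMs. At day 3 of siControl differentiation 3 were higher and 0 lower in C2C12 cells (median 0.03, all genes -0.01), and 3 higher and 3 lower in PMs (median 0.13, all genes 0.01). Over all genes 16% were called higher and 12.7% lower in C2C12 cells, and 17.5% and 14.9% in PMs. Rises of linkers were thus about as frequent as those of all genes. The same shares stand beside the day 3 counts of catenins and ligands below. Itgb1bp2 (melusin), a beta1-binding protein of striated muscle, rose in C2C12 cells from 0.816 and 0.622 to 176 and 171 CPM (log2FC 7.89, SE 0.25, adjusted p = 2.35e-07). In PMs it rose from 73.8 and 77.8 to 396 and 340.1 CPM (log2FC 2.22, SE 0.12, adjusted p = 2.81e-07). In PMs the focal adhesion genes Zyx, Parvb and Bcar1 fell; Zyx went from 483 and 573 to 171 and 239 CPM (log2FC -1.42, SE 0.22, adjusted p = 2.86e-04). After siTead1/4 Itgb1bp2 and Itgb1bp3 were lower in C2C12 cells at day 3, Itgb1bp2 from 176 and 171 to 37.8 and 37.7 CPM (log2FC -2.23, SE 0.19, adjusted p = 0.00189), and no other linker was called at any day in either cell type.

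Of the 8 catenins, 6 were tested in C2C12 cells and 8 in PMs. Jup (plakoglobin), which binds classical and desmosomal cadherins, rose at day 3 in C2C12 cells from 97.1 and 113 to 502 and 479.8 CPM (log2FC 2.19, SE 0.33, adjusted p = 6.56e-04). In PMs Jup rose from 45 and 45.5 to 191 and 201 CPM (log2FC 2.06, SE 0.18, adjusted p = 4.51e-06). It was the 1 catenin higher in C2C12 cells (median 0.46), and in PMs Ctnna3 rose too (2 of 8, median 0.45). After siTead1/4 Ctnna2 alone was called, higher in PMs at day 0. Of 25 integrin ligands other than collagens, 21 were tested in C2C12 cells and 22 in PMs. At day 3, 6 were higher and 2 lower in C2C12 cells (median 0.54), and 7 higher and 3 lower in PMs (median 0.42). The laminin chain Lama2 of muscle basement membrane rose in C2C12 cells from 14.2 and 32.9 to 118 and 164 CPM (log2FC 2.54, SE 0.44, adjusted p = 0.00133), and fibronectin (Fn1) rose in PMs from 548 and 551 to 1143 and 1354 CPM (log2FC 1.13, SE 0.15, adjusted p = 8.02e-05). Vcam1 fell in PMs from 113 and 104 to 23.9 and 38.1 CPM (log2FC -1.86, SE 0.21, adjusted p = 2.85e-05). For siTead1/4 the calls in this list were Tgfbi, higher at day 0, and Npnt, lower at day 3, in C2C12 cells, and Lamc3, lower at day 3, in PMs.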

How the data were processed

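RNA-seq was made with an unstranded poly(A) kit. Per the study's methods and the submitters' processing notes, the authors aligned reads to mm9 with TopHat2 2.0.10 and Bowtie2 2.1.0, counted them with HTSeq 0.6.1 and normalized with DESeq2 1.8.1. The deposited raw counts per gene were used here, as was the deposited gene length (other unit, in bases). The deposited normalized columns were not used, nor were 36 columns of 12 libraries with no label here. Counts were tested with edgeR 4.0.16 (quasi-likelihood, TMM, filterByExpr) in 1 fit of 12 libraries per cell type, or of all 24 for comparisons between cell types, and p-values were adjusted by Benjamini-Hochberg over all 15303 (C2C12), 16144 (PMs) or 16926 (both) genes tested. SE is the log2 fold change over the square root of F. The steps were tested on simulated data. DESeq2 1.42.0, other scaling, no filter, a replicate block, only the compared groups, 1 fit of all 24 libraries and leaving out each library were the alternatives. Fold changes against a group with at most 3 reads per library are lower bounds from 3 reads per library, and cover counting error only. Levels are CPM on the TMM scale of all 24 libraries.

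Members and lists were chosen with earlier results of these data known. Genes with values in every library were those called for siTead1/4, the 3 largest rises and falls called at day 3 in each cell type, those whose siTead1/4 effect differed between the cell types, and a list of muscle adhesion genes; others named were chosen after their values were seen. Without strand, reads of overlapping genes cannot be told apart. Some marker genes are not reported here and were left out of the summed marker levels.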

Additional observations from a re-analysis of the deposited data

Results flagged for a closer look

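These results stand here because the effect in PMs differed from that in C2C12 cells by a test of the difference itself (edgeR, quasi-likelihood, Benjamini-Hochberg); values are log2, PM minus C2C12. For siTead1/4 at day 3 the difference was -3.62 for Cdh3 and 2.93 for Itgam. For the change from day 0 to day 3 in siControl cells it was -4.57 for Itgb4, -4.11 for Itga4, -2.76 for Cdh1, -2.08 for Cdh11, -1.91 for Itga6, -1.68 for Cdh15, -1.58 for Cdh2, -1.35 for Itga7 and -1.01 for Cdh13. It was 4.70 for Itgb7 and 3.16 for Itgal. A fit without the PM libraries of replicate 1 leaves 1 library in each PM group, so its calls are not listed here. Over the 8 libraries left out in turn, the difference was called in 1 fit for Itga7, in 2 for Cdh15, in 4 each for Cdh11, Cdh13 and Itgal, in 7 each for Cdh1 and Itgb7, and in all 8 for Cdh2, Itga4, Itga6 and Itgb4. That of Cdh13 also fell below the fold threshold with DESeq2 (-0.998) and with DESeq2 size factors (-0.997).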

How the results depend on the processing

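None of 1104 alternative values of 102 results on single genes changed direction, and 922 stayed called. The count of members called for siTead1/4 in C2C12 cells, 3, became 13 without the filter on low counts, 0 with only the compared groups and 5 in 1 fit of all 24 libraries (2 to 3 over libraries left out in turn). In PMs 4 became 10 without the filter, 7 with DESeq2 and 8 with only the compared groups (3 to 5). Between days 3 and 6, 0 in C2C12 cells became 2 without the filter and 1 with DESeq2 (0 over libraries left out), and 4 in PMs became 8 without the filter, 8 with DESeq2, 2 with only the compared groups and 1 in 1 fit of all 24 libraries (1 to 3). The siTead1/4 difference between cell types, 2, became 12 without the filter, 5 with DESeq2 and 0 with only the compared groups (0 to 4). Counts over libraries left out were 20 to 25 (24 in the report's fit) for days 3 and 6 against day 0 in C2C12 cells, 25 to 31 (30) in PMs, 29 to 33 (31) between cell types and 13 to 17 (19) for the difference of the day 3 change. Shares of all genes called under these other settings are not given, so these counts cannot be set against all genes. The causes were not tested.

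Leaving out all PM libraries of replicate 1, an alternative chosen after seeing the data, gave 0 for siTead1/4 in PMs, 14 for days 3 and 6 against day 0, 0 between days 3 and 6, 0 for the siTead1/4 difference and 4 for the difference of the day 3 change. That fit has 1 library in each PM group, with the spread taken from C2C12 cells. Its lower counts therefore cannot tell whether the effects depend on replicate 1. A replicate block gave 10 called members for siTead1/4 in PMs and 8 between days 3 and 6 in PMs, and left the other counts within 1.5 times. It ended the calls of Cdh3 for the siTead1/4 difference at day 3 (adjusted p = 0.0507) and of Itga3 at day 3 in PMs (log2 -0.999). In C2C12 cells the numbers did not establish a pairing: deviations of same-numbered libraries correlated at -0.20 to 0.52, over 0.1 in 6 of 15 pairs of groups. In PMs they correlated at 0.069 to 0.54, over 0.1 in 14 of 15 pairs. Cdh19 and Sox10 were higher in every PM library of replicate 1 than in any of replicate 2. PM libraries of the same number thus shared deviations, which the main fit did not take into account. The labels do not say what the number marks. Depth limits the genes with few reads, such as Cdh3, Cdh20 and Itgam.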
